A study of Mus musculus with 4 samples.

Results

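The genes described here are 10 building blocks of simple epithelium: the keratins Krt7, Krt8, Krt18 and Krt19, the claudins Cldn3, Cldn4, Cldn6 and Cldn7, the desmosomal linker desmoplakin (Dsp) and epiplakin (Eppk1). They were taken by symbol, with the coding sequence entries of each gene summed, and all 10 were among the 20716 genes of the table. Of these, 9 had a mean normalised count of at least 25 over the libraries, the limit for the comparisons, which 9670 genes met; Cldn7 did not. The values are ribosome footprint counts, which follow both the amount of an mRNA and the density of ribosomes on it. The study compared C57BL/6 mouse cell lines, wild type (WT) or Mettl3-KO (KO), at 2 stages. One stage was naive embryonic stem cells (ESCs), grown without serum in N2B27-based medium with LIF and the inhibitors CHIR99021 and PD0325901. The other was embryoid bodies (EBs), made from such cells in non-adherent plates and kept in medium with serum for between 8 and 21 days. Mettl3 encodes the enzyme that writes N6-methyladenosine on mRNA.

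Each group is 1 library, so no difference below has a replicate check, and genotype cannot be told apart from the line or the library. The sources used here do not give how the KO lines were made, how many clones they stand for, or the day of each EB library. Reads on coding sequences ranged from 4075850 in KO EBs to 11455539 in KO ESCs, and 1 read was worth between 0.533 and 1.56 normalised counts. Mettl3 itself stood at 563 and 298 in WT and KO ESCs, and at 429 and 327 in WT and KO EBs. Counts over a whole coding sequence do not show whether a part of it was deleted. Intervals given with ratios are 95% counting intervals and cover counting error only. Markers of pluripotent cells had a summed value of 21989 and 13981 in WT and KO ESCs, and of 12222 and 17710.5 in WT and KO EBs. Those of visceral endoderm summed to 302 and 378 in WT and KO ESCs, against 48028 and 1954 in WT and KO EBs. The 6 endothelial markers summed to between 273 and 459, with Pecam1 listed at 0.

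Keratins are the intermediate filament proteins of epithelia. A filament is built from pairs of a type I chain (Krt18, Krt19) and a type II chain (Krt7, Krt8), and an unpaired chain is degraded. Krt8 and Krt18 are the first keratins of the mouse embryo and mark the trophectoderm and the visceral endoderm. Desmoplakin ties the filaments to desmosomes, and epiplakin, a large protein made of repeated plakin domains, binds keratin networks. Claudins are membrane proteins whose strands seal the tight junction between neighbouring cells. Cldn6 is known as a claudin of embryonic epithelia, and Cldn3, Cldn4 and Cldn7 occur in many simple epithelia.

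Counts of short reads depend on how much of a gene is unique, and these genes differ widely in that. Each stretch of 28 nt along their coding sequences, here called a window, was looked up on both strands of the GRCm38 chromosomes. In Krt8 only 28.7% of windows were unique. The processed pseudogene Krt8-ps (chromosome 7, 23357125 to 23358582) held an exact copy of 70.4% of them. In Krt18 81.9% were unique, and the pseudogene Gm5200 on chromosome 13 held 13.4%. Eppk1 was the other exception: 67.5% of its windows were unique, 31.9% recurred only within the gene itself and 0.570% were copied elsewhere, all of these in its neighbour Plec. Krt7, Krt19, Cldn3, Cldn4, Cldn6, Cldn7 and Dsp had between 96.6% and 99.5% unique windows. Reads with no single place in the genome are listed apart from the genes and made up 48.4% to 55.7% of the reads in the table. Counts of Krt8 can therefore hold reads from only a small part of the gene. Ratios of 1 gene between libraries rest on the same windows if reads are alike in length, which was not examined. With 32-nt windows 32.7% of Krt8 was unique.

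**Figure D1:**
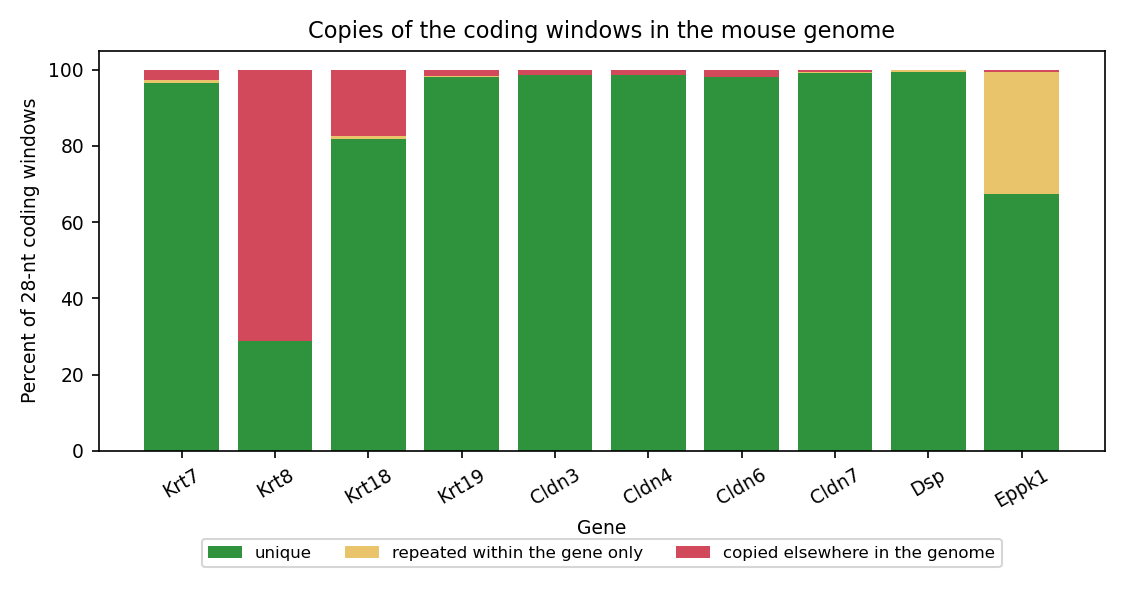
Percent of 28-nt coding windows (vertical axis) of each of the 10 genes (horizontal axis) that are unique, repeated only within the same gene, or copied elsewhere in the genome. Krt8 stands out with 28.7% unique windows, and Eppk1 with 31.9% repeated inside the gene.

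The sequences behind those losses are shown because they decide what could be counted. The first is part of the longest run of Krt8 in which no 28-nt window was unique, the second is the same for Eppk1, and the third is a stretch that Cldn3 and Cldn4 have in common letter for letter. All are given 5′ to 3′ on the coding strand, and no letters are in capitals because every window of each run has a second place in the genome.
Krt8, coding bases 385 to 504, chr15:102001464-102001583, minus strand of GRCm38, from a run of 299 bases: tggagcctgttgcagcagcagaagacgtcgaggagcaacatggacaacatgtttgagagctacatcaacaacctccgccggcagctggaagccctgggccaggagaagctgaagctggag
Eppk1, coding bases 7533 to 7652, chr15:76105028-76105147, minus strand, from a run of 1086 bases: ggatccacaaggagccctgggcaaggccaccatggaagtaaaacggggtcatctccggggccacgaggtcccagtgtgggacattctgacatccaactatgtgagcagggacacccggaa
Cldn3, coding bases 211 to 245, chr5:134986655-134986689, plus strand, the same letters as Cldn4 coding bases 214 to 248, chr5:134946498-134946532, minus strand: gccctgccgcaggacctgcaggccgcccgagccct

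Cldn7, a claudin found along the lateral membrane of many epithelia, was listed at 0 in all 4 libraries. The table holds 2 coding sequence entries for it, NM_001193619 and NM_016887, each of 636 bases, and 100% of each lies inside the other. Reads that fall on more than 1 entry were counted as ambiguous, which took 8.62% to 10.5% of the reads in each library. The 0 is therefore not a level of Cldn7, and no fold was computed for it. The other 9 genes share no coding base with another entry. The same limit holds for most other genes named here as listed at 0. Of 27 genes of the marker and partner lists at 0 in all 4 libraries, all but 2 (Cldn8 and Krt6a) shared coding bases with another entry and 12 lay wholly in other entries, among them Ctnnb1, the beta-catenin that nearly every cell uses. A 0 of such a gene is not read as absence.

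Krt18, the type I partner of Krt8 (NM_010664, chromosome 15, 102028216 to 102032026), stood at a normalised count of 131.5 in WT and 355 in KO ESCs, and at 3597 in WT and 2005 in KO EBs. Krt8 (NM_031170, 102004342 down to 101996711 on the same chromosome, 23873 bases from Krt18) stood at 87.2, 284, 1334 and 800.1 in that order of libraries. Krt19 (NM_008471, chromosome 11, 100140810 to 100145926), a type I keratin of simple and ductal epithelia, stood at 35.0, 106, 634 and 640.4. Krt7 (NM_033073, chromosome 15, 101412403 to 101427806), a type II keratin of glandular and ductal epithelia, stood at 39.7, 87.5, 305.5 and 401.5. All 4 keratins were lowest in WT ESCs, next lowest in KO ESCs, and higher in both EB libraries than in either ESC library. The EB libraries were in a different order for different keratins: Krt8 and Krt18 were higher in WT EBs, Krt7 in KO EBs, and Krt19 did not differ beyond counting error (ratio of KO to WT 1.01, interval 0.879 to 1.16).

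Among the claudins, Cldn4 (NM_009903, chromosome 5, 134945123 to 134946934) had values of 781 and 1978.5 in WT and KO ESCs, and of 2110.3 and 3899 in WT and KO EBs. Cldn3 (NM_009902, chromosome 5, 134986214 to 134987476), whose gene lies 39279 bases from Cldn4, stood at 77.8, 369, 502 and 1072 in that order. Both were lowest in WT ESCs and highest in KO EBs. Cldn6 (NM_018777, chromosome 17, 23679348 to 23682446) stood at 168, 124, 2801 and 666, highest in WT EBs and lowest in KO ESCs. Desmoplakin (NM_023842, chromosome 13, 38151294 to 38198577) had values of 999 and 448 in WT and KO ESCs, and of 1649 and 312 in WT and KO EBs, so both WT libraries lay above both KO libraries. Epiplakin (NM_144848, chromosome 15, 76101488 to 76120195) stood at 160.3, 12.8, 189 and 133, and its KO ESC value rests on 24 reads.

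**Figure D2:**
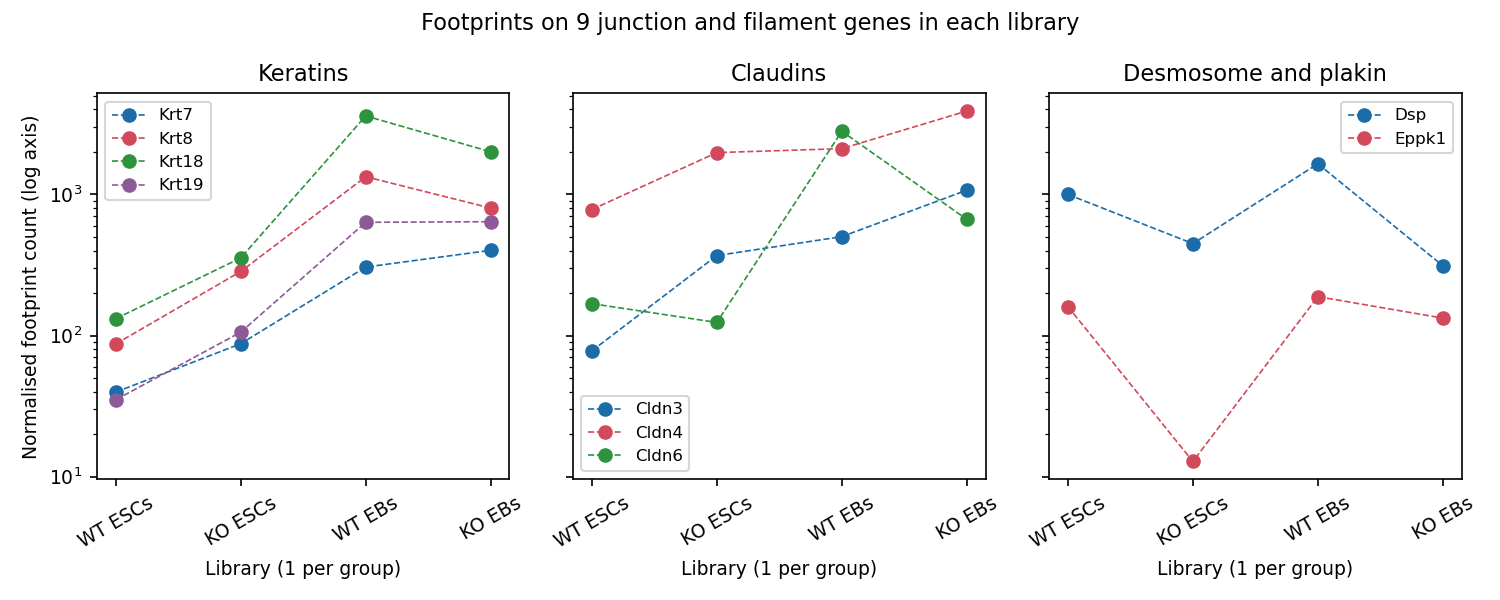
Normalised footprint count (vertical, log axis) in each of the 4 libraries (horizontal axis, 1 library per group), with 1 coloured point per gene and library and dashed lines that only join points of a gene. The keratins are lowest in WT ESCs and higher in both EB libraries, Cldn6 is highest in WT EBs at 2801, and Eppk1 is lowest in KO ESCs at 12.8.

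As a group, the 4 keratins held 0.00440% of gene footprints in the WT ESC library (exact binomial interval 0.00397% to 0.00487%) and 0.0136% in the KO ESC library (0.0130% to 0.0143%). In EBs they held 0.0890% in WT (0.0862% to 0.0919%) and 0.0632% in KO (0.0608% to 0.0657%). Claudins 3, 4 and 6 held 0.0154% (0.0146% to 0.0163%), 0.0404% (0.0393% to 0.0416%), 0.0820% (0.0793% to 0.0848%) and 0.0926% (0.0897% to 0.0956%) in the same order. Dsp and Eppk1 held 0.0174% (0.0165% to 0.0183%), 0.00754% (0.00705% to 0.00806%), 0.0278% (0.0263% to 0.0295%) and 0.00731% (0.00651% to 0.00819%). The keratin share was thus higher in KO than in WT ESCs and lower in KO than in WT EBs, and the share of Dsp and Eppk1 was lower in KO at both stages.

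The first comparison asked what differs between KO and WT in naive ESCs, before differentiation. Keratins and 2 of the 3 measured claudins were higher in KO ESCs, while Dsp and Eppk1, which bind the filaments, were lower. At least 2-fold higher were 6 of the 9 measured genes (Krt7, Krt8, Krt18, Krt19, Cldn3 and Cldn4), against 10.6% of all genes tested, and at least 2-fold lower were 2 (Dsp and Eppk1), against 4.42%. Folds counted this way are of the value + 1. The median log2 fold was 1.34 for the 9 genes and −0.00 for all genes tested.

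Cldn3 was 4.74-fold higher in KO ESCs (3.84 to 5.90), Krt8 3.26-fold (2.66 to 4.04), Krt19 3.02-fold (2.17 to 4.27), Krt18 2.70-fold (2.28 to 3.21), Cldn4 2.53-fold (2.36 to 2.72) and Krt7 2.20-fold (1.60 to 3.08). The intervals of the 4 keratins overlap one another. Epiplakin was 12.5-fold lower (8.19 to 19.99), and only 0.0724% of tested genes had a lower log2 fold. Desmoplakin was 2.23-fold lower (2.04 to 2.43). Cldn6 was 1.36-fold lower (1.12 to 1.64), within 2-fold. Trophoblast markers moved with the keratins: the summed value of 10 such genes was 133 in WT ESCs and 539 in KO ESCs. The 5 of them that met the limit had 4 at least 2-fold higher in KO and 0 lower, against 10.6% and 4.42% of all genes tested. Of these 10, Tpbpa was at 0 in both, and Elf5, Eomes and Prl3d1 were listed at 0, with at least 97.3% of each entry inside a second one, so that their level is not known. The 7 mesenchyme markers summed to 339 and 1814, with Pdgfra and Pdgfrb listed at 0, and all 5 that met the limit were at least 2-fold higher. Of 13 measured visceral endoderm markers, 4 were higher and 2 lower by that much. Those 13 could meet the limit through the WT EB library alone. The part of these lists in the keratin difference was not tested. Here and below, fewer cells of a type and less RNA per cell cannot be told apart.

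The second comparison was between the EB libraries of the genotypes. Desmoplakin and Cldn6 were lower in KO EBs, Cldn3 was higher, and the keratin pair Krt8 and Krt18 was lower by less than 2-fold. Of the 9 genes 1 was at least 2-fold higher (Cldn3), against 15.2% of all genes tested, and 2 were at least 2-fold lower (Cldn6 and Dsp), against 12.2%. The median log2 fold was −0.50 for the 9 genes and −0.07 for all. By count alone, with 9 genes, both the 1 higher and the 2 lower are near the background shares.

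Desmoplakin was 5.29-fold lower in KO EBs (4.55 to 6.16), and 1.72% of tested genes had a lower log2 fold. Cldn6 was 4.21-fold lower (3.79 to 4.68). Krt18 was 1.79-fold lower (1.68 to 1.92), Krt8 1.67-fold lower (1.495 to 1.86) and Eppk1 1.42-fold lower (1.07 to 1.89). Cldn3 was 2.14-fold higher (1.87 to 2.44), Cldn4 1.85-fold higher (1.73 to 1.97) and Krt7 1.31-fold higher (1.09 to 1.59). With every library scaled to the same total, Cldn4 passed 2-fold, at a log2 fold of 1.00. Markers of visceral endoderm, a polarised epithelium, moved with the lower genes: of 14 such genes 13 met the limit, and in KO EBs all 13 lay at least 2-fold below WT EBs. That list summed to 48028 in WT EBs and 1954 in KO EBs. Its genes could thus meet the limit through the WT EB library alone, and the count of 13 is not a test. Dab2, another marker of that tissue, was listed at 0 in all libraries. Trophoblast markers summed to 655 in WT and 1509 in KO EBs, and mesenchyme markers to 935 and 7213. The part of these lists in the values of Krt8, Krt18, Cldn3, Cldn6 and Dsp was not tested.

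Differentiation of WT cells was the third comparison. All 4 keratins and the 3 measured claudins had values in WT EBs at least 2-fold above WT ESCs, which makes 7 of 9 genes, against 11% of all genes tested, and 0 of 9 were at least 2-fold lower, against 8.25%. The median log2 fold was 2.91 for the 9 genes and −0.02 for all. Krt18 was 27.3-fold higher (23.4 to 32.2), Krt19 18.1-fold (13.3 to 25.2), Cldn6 16.7-fold (14.5 to 19.3), Krt8 15.3-fold (12.6 to 18.8) and Krt7 7.70-fold (5.63 to 10.7). Cldn3 was 6.45-fold (5.14 to 8.15) and Cldn4 2.70-fold higher (2.49 to 2.93). Desmoplakin was 1.65-fold higher (1.52 to 1.79), and epiplakin did not differ beyond counting error (ratio 1.18, 0.932 to 1.48). Beside these genes, 13 of 13 measured visceral endoderm markers and 4 of 5 trophoblast markers were also higher in WT EBs by 2-fold or more, as were 3 of 5 mesenchyme markers (median log2 fold 1.49), and their part in the keratin and claudin values was not tested. The visceral endoderm list summed to 302 in WT ESCs and 48028 in WT EBs. Its genes could thus meet the limit through the WT EB library alone, and the count of 13 is not a test.

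Differentiation of KO cells was the fourth comparison. Here 7 of 9 genes were at least 2-fold higher, against 9.31% of all genes tested, and 0 at least 2-fold lower, against 6.65%, but the 7 included Eppk1 and not Cldn4. The median log2 fold was 2.19 for the 9 genes and −0.08 for all. Krt19 was 6.06-fold higher in KO EBs (5.11 to 7.21), Krt18 5.65-fold (5.15 to 6.21), Cldn6 5.38-fold (4.58 to 6.33), Krt7 4.59-fold (3.77 to 5.61), Cldn3 2.91-fold (2.62 to 3.23) and Krt8 2.81-fold (2.49 to 3.18). Epiplakin was 10.4-fold higher (6.55 to 17.0). Cldn4 lay just under the limit at 1.97-fold (1.87 to 2.07), and passed it, at a log2 fold of 1.07, with libraries scaled to the same upper quartile. Desmoplakin was 1.44-fold lower (1.23 to 1.68). In this comparison 11 of 13 visceral endoderm markers, 3 of 5 trophoblast markers and 5 of 5 mesenchyme markers were higher by 2-fold or more, which was likewise not tested as a part of the values above.

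**Figure D3:**
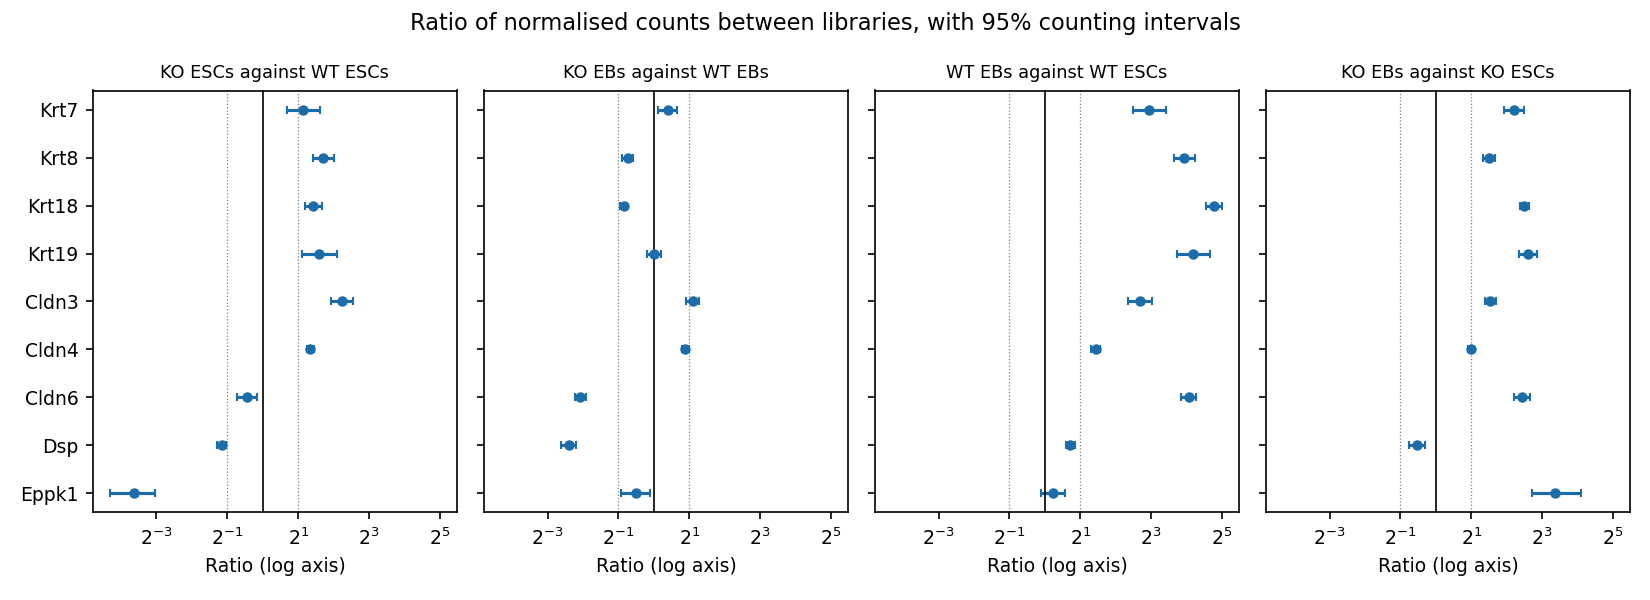
Ratio of normalised counts between 2 libraries (horizontal, log axis) for each gene (vertical axis) in the 4 comparisons, with 95% counting intervals as bars, a solid line at equal values and dotted lines at 2-fold. Krt8 and Krt18 lie to the right of the solid line in ESCs and to its left in EBs, and Dsp lies to its left in both.

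The change from ESCs to EBs differed between the genotypes, as far as 4 single libraries show. The difference, KO change minus WT change, was at or below −1 on the log2 scale for 6 of 9 genes (Krt8, Krt18, Krt19, Cldn3, Cldn6 and Dsp), against 12.5% of all genes tested, and at or above 1 for 1 (Eppk1), against 11.4%. The median difference was −1.24 for the 9 genes and −0.08 for all. These comparisons share libraries, so they are not independent of those above. Krt8 had a log2 change of 3.92 in WT and 1.49 in KO, a difference of −2.43. The interval of that difference, without the value of 1 added, was −2.78 to −2.11. For Krt18 the difference was −2.27 (−2.54 to −2.01), for Cldn6 −1.63 (−1.94 to −1.32), for Krt19 −1.55 (−2.08 to −1.07), for Dsp −1.24 (−1.49 to −0.998) and for Cldn3 −1.14 (−1.51 to −0.79). Cldn4, at −0.45 (−0.59 to −0.32), and Krt7, at −0.73 (−1.27 to −0.22), were above −1. Epiplakin differed the other way, by 3.04 (2.42 to 3.87 without the value of 1 added), with only its KO ESC value far from the others.

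A count test used all 4 libraries at once: edgeR's quasi-likelihood test on the recovered reads, with genotype and stage as additive terms, leaves 1 residual degree of freedom. It called 0.259% of genes between EBs and ESCs and 0.00% between KO and WT at an adjusted p under 0.05, where 1556 genes had an unadjusted p under 0.05 between KO and WT. None of the 9 genes was called. By edgeR the smallest adjusted p between EBs and ESCs was that of Cldn6, 0.0607 (log2 fold 3.27), followed by Krt19 at 0.0636, Krt18 at 0.0739 and Krt7 at 0.0764. Between KO and WT the smallest edgeR adjusted p was that of Dsp, 0.134 (log2 fold −1.75). Additive terms cannot describe a gene such as Krt8, whose KO difference has another sign at each stage.

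Since type I and type II keratins pair, their densities were compared per kb of unique coding windows (unique windows are 0.415 kb in Krt8, 1.02 kb in Krt18, 1.16 kb in Krt19 and 1.30 kb in Krt7). On this scale Krt8 stood at 210.1 and Krt18 at 129 in WT ESCs, at 685 and 348 in KO ESCs, at 3215 and 3527 in WT EBs, and at 1928 and 1965 in KO EBs. The density ratio of Krt18 to Krt8 was 0.614 in WT ESCs (0.484 to 0.780), 0.508 in KO ESCs (0.453 to 0.569), 1.10 in WT EBs (1.01 to 1.19) and 1.02 in KO EBs (0.922 to 1.13). On this scale the partners were thus close to 1 to 1 in both EB libraries, though the WT EB interval lay just above 1. Krt8 exceeded Krt18 in both ESC libraries. With unique 32-nt windows the ratio was 0.658, 0.544, 1.18 (1.09 to 1.27) and 1.09 (0.989 to 1.21) in the same order. Over the whole coding length, which takes no account of the Krt8 copies, the ratio was 1.75, 1.45, 3.13 and 2.91 in the same order. The level of the ratio thus depends on the length used. The relation between libraries does not, since the lengths cancel there, provided that reads of the libraries are alike in length. For all 4 keratins together, type I to type II stood at 0.661 (0.534 to 0.818) and 0.583 (0.526 to 0.646) in WT and KO ESCs, and at 1.18 (1.10 to 1.27) and 1.12 (1.03 to 1.23) in WT and KO EBs.

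**Figure D4:**
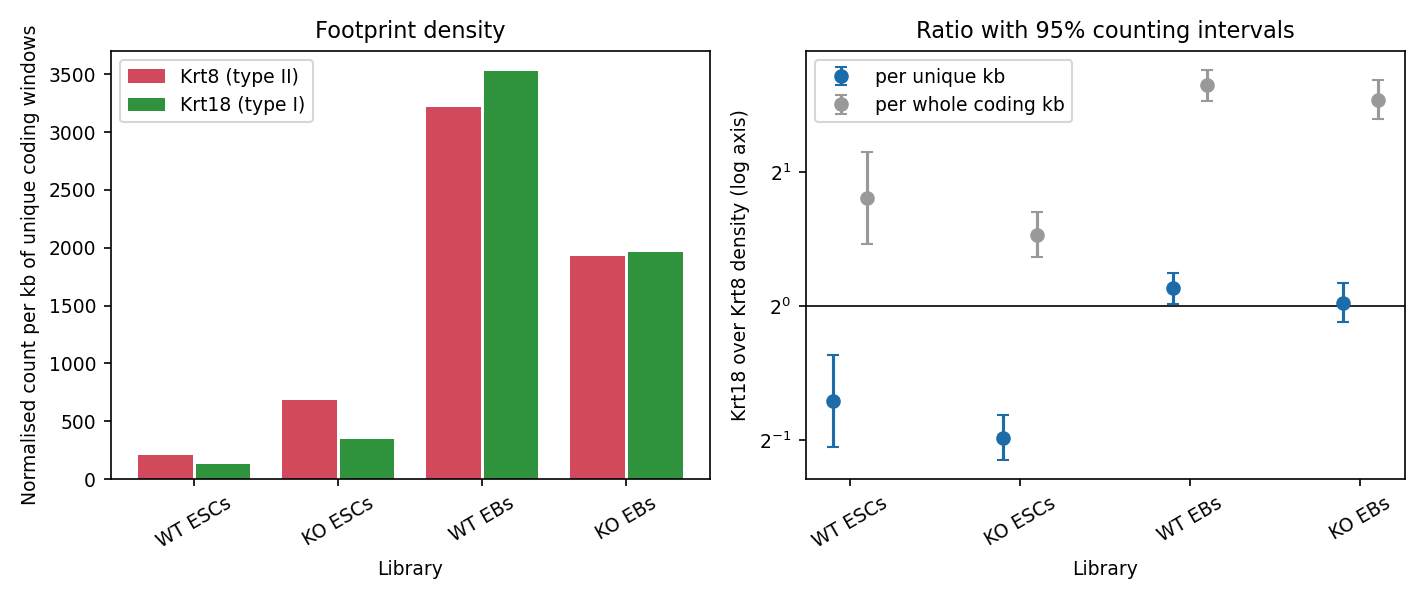
Left, normalised count per kb of unique coding windows (vertical axis) of Krt8 and Krt18 in each library. Right, the ratio of Krt18 to Krt8 density (log axis) per unique kb and per whole coding kb, with 95% counting intervals and a line at equal density. Per unique kb the EB ratios are 1.10 and 1.02 and the ESC ratios 0.614 and 0.508.

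Krt19 to Krt7, the other pair, stood at 0.987 in WT ESCs (0.661 to 1.47), 1.35 in KO ESCs (1.10 to 1.66), 2.32 in WT EBs (1.959 to 2.75) and 1.78 in KO EBs (1.53 to 2.08) per unique kb. Of the summed density of the 4 keratins, Krt8 held 52.6% and 57.5% in WT and KO ESCs, and 42.7% and 40.6% in WT and KO EBs. Krt18 held 32.3%, 29.2%, 46.9% and 41.4% in the same order, Krt19 held 7.54%, 7.63%, 7.25% and 11.6%, and Krt7 held 7.64%, 5.65%, 3.12% and 6.49%. Per kb of whole coding length Krt18 held the larger share in each library, at 47.0%, 44.8%, 63.2% and 53.6% in the same order against 26.8%, 30.9%, 20.2% and 18.4% for Krt8. On both scales Krt8 and Krt18 together made up most of the keratin density in each library, while which of them led in ESCs depends on the scale.

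The claudin makeup also differed between libraries. Per unique kb, Cldn4 held 76.8% and 80.7% of the density of the 3 measured claudins in WT and KO ESCs, and 39.9% and 70.1% in WT and KO EBs. Cldn6 held 15.9%, 4.86%, 51.0% and 11.5% in that order, and Cldn3 held 7.32%, 14.4%, 9.08% and 18.4%. Cldn6 was the leading claudin in the WT EB library alone, and Cldn4 led in the other 3. The summed value of the 3 claudins was nevertheless close in the EB libraries, at 5413 in WT and 5636 in KO (ratio 1.04, 0.994 to 1.09).

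**Figure D5:**
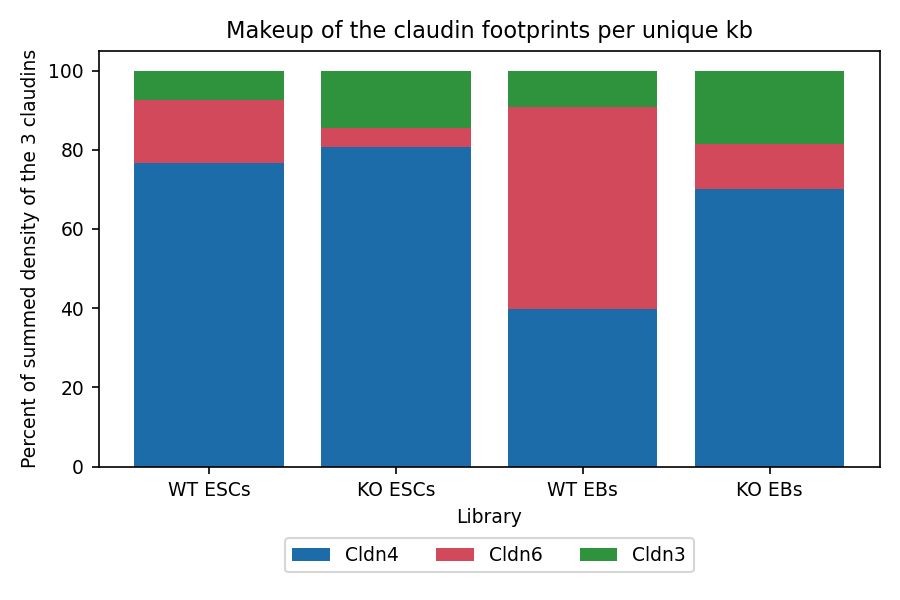
Percent of the summed density of Cldn3, Cldn4 and Cldn6 per unique kb (vertical axis) in each library (horizontal axis). Cldn6 holds 51.0% in WT EBs and between 4.86% and 15.9% in the other libraries.

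Ordered by density per unique kb, Cldn4 led the 9 genes in WT ESCs (1307), KO ESCs (3309) and KO EBs (6519.8), and Cldn6 led in WT EBs (4510.0). In WT EBs Cldn4 (3529) and Krt18 (3527) came next after it, with close densities on this scale, and stood at 3482 and 2889 per kb of whole coding length. Epiplakin was last in each library, between 1.83 and 27.0. Dsp, whose coding sequence is 8652 bases long, stood at 116 and 52.2 in WT and KO ESCs, and at 192 and 36.4 in WT and KO EBs, next to last in each but WT ESCs. In WT ESCs Krt7 (30.5) and Krt19 (30.1) did not differ beyond counting error.

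Promoters were available for 8 of the 10 genes from RefSeq (GRCm38.p6), as the 250 bases before to the 50 bases after each annotated start, and 5 are printed because those genes differ between libraries in 3 ways: Krt8 and Krt18 as a pair, Cldn3 and Cldn4 as a neighbouring pair, and Cldn6 apart from them. Capitals mark matches, on either strand, to the TATA box core TATAAA, the GC box GGGCGG, the E-box CACCTG, which repressors of the Snail and Zeb families bind in epithelial genes, and the AP-1 site TGANTCA. Overlapping matches are merged. The palindrome AACCGGTT, 2 facing half-sites of GRHL factors, was also searched. Krt19 and Eppk1 were not in the promoter table.
Krt8, chr15:102004293-102004592, minus strand: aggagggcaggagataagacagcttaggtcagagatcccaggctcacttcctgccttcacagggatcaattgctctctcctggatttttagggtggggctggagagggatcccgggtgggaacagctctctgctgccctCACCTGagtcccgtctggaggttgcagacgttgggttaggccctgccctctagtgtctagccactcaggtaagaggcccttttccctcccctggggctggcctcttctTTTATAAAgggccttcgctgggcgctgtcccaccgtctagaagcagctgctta
Krt18, chr15:102027966-102028265, plus strand: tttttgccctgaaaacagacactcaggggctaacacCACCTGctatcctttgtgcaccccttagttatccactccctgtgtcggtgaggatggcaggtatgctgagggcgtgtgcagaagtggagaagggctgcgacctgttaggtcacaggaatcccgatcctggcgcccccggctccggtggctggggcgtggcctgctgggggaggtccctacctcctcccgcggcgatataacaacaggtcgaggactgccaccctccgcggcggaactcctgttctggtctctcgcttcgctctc
Cldn3, chr5:134985964-134986263, plus strand: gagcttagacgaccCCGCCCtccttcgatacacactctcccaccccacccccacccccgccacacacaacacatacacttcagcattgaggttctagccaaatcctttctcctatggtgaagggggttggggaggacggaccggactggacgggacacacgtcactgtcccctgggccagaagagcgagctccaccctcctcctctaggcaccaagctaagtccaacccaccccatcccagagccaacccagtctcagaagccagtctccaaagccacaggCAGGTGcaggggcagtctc
Cldn4, chr5:134946885-134947184, minus strand: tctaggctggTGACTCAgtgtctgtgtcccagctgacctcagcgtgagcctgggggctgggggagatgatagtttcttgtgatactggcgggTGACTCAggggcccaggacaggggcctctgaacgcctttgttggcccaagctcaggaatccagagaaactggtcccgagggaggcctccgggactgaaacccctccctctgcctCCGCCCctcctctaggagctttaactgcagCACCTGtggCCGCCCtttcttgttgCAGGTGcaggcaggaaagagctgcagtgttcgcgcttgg
Cldn6, chr17:23679115-23679414, plus strand: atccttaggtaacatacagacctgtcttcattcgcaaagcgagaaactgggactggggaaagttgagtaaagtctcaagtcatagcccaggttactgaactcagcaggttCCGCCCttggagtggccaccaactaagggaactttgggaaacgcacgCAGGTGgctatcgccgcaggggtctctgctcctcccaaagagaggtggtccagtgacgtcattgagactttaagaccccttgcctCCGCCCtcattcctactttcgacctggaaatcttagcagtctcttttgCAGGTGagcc

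The E-box CACCTG was found in a promoter of all 8 genes, against 20.2% of the 32851 RefSeq promoters of the same length; it occurred 2 times in the Cldn4 and Cldn6 windows and once in those of Krt7, Krt8, Krt18, Cldn3 and Dsp. For Cldn7 it was in 1 of the 2 promoters, while the 20.2% is counted per promoter. These promoters held between 52.0% GC (1 of Cldn7) and 73.0% GC (Dsp), against a median of 52.7% for all promoters. The 20.2% was not matched for GC content, so it does not measure enrichment of the E-box. Cldn4 held 2 AP-1 matches, a motif of 7.81% of all promoters that no other of these promoters held. GC boxes, in 35.7% of all, were found in Krt7 and Dsp (4 each), Cldn4 and Cldn6 (2 each), Cldn3 and 1 Cldn7 promoter, and not in Krt8 or Krt18. Krt8 alone held a TATAAA, at its annotated start, where the overlapping TTTATA is the same motif read on the other strand (13.6% of all promoters). AACCGGTT, in 0.146% of all promoters, was in none of them. These are matches of letters, and binding was not measured.

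Mettl3 acts at a short consensus of which GGACT is a common form, so its letters were counted in the coding sequences. GGACT occurred 2 times in Cldn6 (3.03 per kb, above 94.0% of 9597 genes tested), 4 times in Krt8 (2.72 per kb) and 3 times in Krt18 (2.36 per kb). Krt19 had 2 (1.65 per kb), and Cldn4 (1.58 per kb) and Cldn3 (1.515 per kb) had 1 each. Dsp had 5 (0.578 per kb), Eppk1 7 (0.675 per kb) and Krt7 1 (0.728 per kb), each under the median of 1.08 per kb, and Cldn7 had none. The motif is in 77.2% of the coding sequences tested, and methylation was not measured in these libraries.

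Other genes of the same structures were followed from lists. Of 10 further desmosome genes 5 met the limit. Between the EB libraries 2 of them were lower in KO by at least 2-fold and 0 higher (median log2 fold −0.92), where 12.2% of all genes tested were lower and 15.2% higher: plakophilin 2, Pkp2, an armadillo protein that recruits desmoplakin, was 2.52-fold lower (2.17 to 2.94), and the desmosomal cadherin Dsc2 2.29-fold lower (1.797 to 2.93). The cadherin Dsg2, by contrast, was 1.69-fold higher (1.57 to 1.82). In ESCs 0 of the 5 passed 2-fold in either direction (median −0.35), where 10.6% of all genes tested were higher in KO and 4.42% lower. Dsc2 (1.997-fold lower, 1.54 to 2.60) and Pkp2 (1.91-fold lower, 1.61 to 2.27) came nearest. Of the 3 other plakins measured, envoplakin, Evpl, was 3.90-fold higher in KO ESCs (3.15 to 4.87), opposite to Dsp and Eppk1. It alone passed 2-fold, and 0 were lower by that much, against 10.6% and 4.42% of all genes tested. Dst and Ppl were lower in KO ESCs by less than 2-fold, and the median log2 fold of the 3 was −0.39. Plec and Macf1 were listed at 0 in every library.

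Of 20 partners of the tight junction 14 met the limit. In WT cells 7 of them passed 2-fold upward from ESC to EB and 2 downward (median 1.02), against 11% and 8.25% of all genes tested. Cingulin, Cgn, a cytoplasmic plaque protein, was 12.0-fold higher (9.18 to 15.95), although 29.95% of its coding windows are copied elsewhere, and the scaffold Patj 6.39-fold (3.86 to 10.98). Patj has 4 entries, and between 84.78% and 100% of each lies inside others, so its fold rests on a small part of the gene. The adhesion molecules Jam2 and Jam3 were 6.61-fold (5.88 to 7.46) and 3.67-fold lower (2.90 to 4.70). Between the EB libraries 2 of 14 were higher in KO by at least 2-fold (Jam3, 3.62-fold, 2.82 to 4.69, and Jam2, 2.14-fold, 1.87 to 2.46) and 4 lower (median −0.81, against 15.2% and 12.2% of all genes), among them the scaffold Magi3 at 5.35-fold (2.48 to 13.2). Of the 2 Magi3 entries, 75.17% and 98.52% lie inside the other, so its fold too rests on a part of the gene. Its KO EB value of 11.9 is few reads, at 1.49 per read. Between the ESC libraries 1 was higher (Cgnl1) and 1 lower (Crb3), with a median of −0.04, against 10.6% and 4.42% of all genes. In KO cells 2 passed upward from ESC to EB and 1 downward (median 0.24), against 9.31% and 6.65%. Tjp1, Magi1 and Tjap1 were listed at 0 throughout.

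The epithelial cadherin Cdh1, named after its values were seen, stood at 7498 and 7729 in WT and KO ESCs, and at 6469.5 and 9946 in WT and KO EBs, within 2-fold in all 4 comparisons. Epcam, an epithelial surface protein also found on pluripotent cells, was 2.46-fold lower in KO ESCs (2.29 to 2.65), where keratins were higher. Of 9 measured genes of adherens junctions and the epithelial surface, 2 were higher in KO ESCs by at least 2-fold and 1, Epcam, lower (median 0.04, against 10.6% and 4.42% of all genes). Among those higher was the protease Prss8 (2.23-fold, 1.73 to 2.91). Between the EB libraries 0 of the 9 passed 2-fold (median −0.26), where 15.2% of all genes tested were higher in KO and 12.2% lower. Among 6 epithelial regulators measured, the splicing factor Esrp1 was lower in KO at both stages (4.24-fold in ESCs, 2.58 to 7.24, and 4.18-fold in EBs, 3.56 to 4.92), and the transcription factor Grhl2 was 2.16-fold lower in KO EBs (1.75 to 2.66). The list had 0 genes higher and 2 lower at each stage (medians −0.32 in ESCs and −0.40 in EBs). Of all genes tested 4.42% were lower and 10.6% higher in KO ESCs, and 12.2% lower and 15.2% higher in KO EBs. With 6 genes, 0 higher is near those shares. The other gene lower in ESCs was Klf5 (2.42-fold, 2.32 to 2.52).

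Of genes outside the group, those whose profile over the 4 libraries lay nearest to a member were named by the root mean square difference of log2(value + 1), centred on each gene's mean. Nearest to Krt8 were Myrf (0.106), Arhgef5 (0.157) and Sh3bp5 (0.179). Nearest to Cldn6 were Gata6 (0.250), a transcription factor of primitive endoderm, Arhgef28 (0.270) and Cited1 (0.296). Nearest to Eppk1 were Kirrel2 (0.349), Nphs1, which encodes nephrin (0.396), and Plvap (0.581). Nphs1 stood at 240.5 and 36.8 in WT and KO ESCs, and at 376 and 400.0 in WT and KO EBs. With 4 points per gene and 9670 genes, such likeness is a description only.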

How the data were processed

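Ribosome footprints of 4 mouse libraries were analysed, 1 per group, each placed by its title. The authors deposited 1 signal value for every RefSeq coding sequence and library, which their steps show to be a read count divided by 1 factor per library. Per the submitters' processing notes, the tools were DESeq, HTSeq 0.6.0, TopHat2 2.0.10, Bowtie and CASAVA 1.8.2, with mm10 as the build. Their settings, strand included, are not given in the sources used. Read counts were recovered from these steps, and 100% of values came out whole within 0.01. The 5 entries that name no gene held 66.6% to 72.1% of reads and were left out.

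RefSeq names (GRCm38.p6, the same assembly as mm10) matched 27079 of 27442 entries, which were summed to 20716 genes. Log2 folds are of value + 1, over genes with a mean of at least 25, and count at 2-fold or more. Ratio intervals are conditional exact binomial (Clopper-Pearson); those of density ratios and of the genotype difference use a log-scale approximation. Copies were sought for 28-nt windows, or 32-nt as an alternative. Python 3.11.15, scipy 1.17.1, R 4.3.3 and edgeR 4.0.16 were used, and the fold and edgeR steps were tested on simulated data. Alternatives were pseudocounts of 0.5 and 5, 2 scalings, other filters and a 1.5-fold limit; the edgeR test was chosen after seeing the data. The genes and lists were chosen with earlier results of these data known. Named were the 10 genes, Mettl3, the ends of each list in a comparison, and the 3 nearest profiles of Krt8, Cldn6 and Eppk1. Some genes at list ends are not reported here.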

Additional observations from a re-analysis of the deposited data

Results flagged for a closer look

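Krt8 and Krt18 differed between KO and WT in opposite directions at the 2 stages, with counting intervals clear of equality at both. The log2 fold of KO over WT was 1.69 in ESCs and −0.74 in EBs for Krt8, and 1.42 in ESCs and −0.84 in EBs for Krt18. Each value compares 1 library with 1 other, and the difference between the stages was not tested over replicates. Both partners lay on the same side of equality in each of the 4 comparisons, though not by the same fold. Of their windows, 71.2% in Krt8 and 17.3% in Krt18 are copied elsewhere in the genome.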

How the results depend on the processing

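With 1 library per group no replicate could be left out. No paired analysis was possible for the same reason. Of 180 log2 folds of single genes recomputed with another pseudocount or scaling, 0 changed sign and 6 moved by more than their counting error, all under the 2 scalings. The filters and the 1.5-fold limit do not enter a fold. Equal totals moved the median log2 fold of all genes between KO and WT from −0.00 to 0.12 in ESCs, and either scaling moved it from −0.07 to 0.05 in EBs. In KO EBs against WT EBs the number of genes at least 2-fold higher, 1, became 2 with equal totals and with a 1.5-fold limit, which also raised the number lower from 2 to 4. The counts of the other comparisons stayed within 1.5 times of those reported under each alternative. Over the whole coding length the type I to type II keratin ratio was 1.51 and 1.43 in WT and KO ESCs, and 2.98 and 2.53 in WT and KO EBs, since that length includes the copied windows. Without the 100 highest genes, which makes the total smaller, the keratin share was 0.00504%, 0.0152%, 0.101% and 0.0719% in that order, the claudin share 0.0177%, 0.0451%, 0.0931% and 0.105%, and the share of Dsp and Eppk1 0.0199%, 0.00841%, 0.0316% and 0.00832%. In edgeR's test 20 genes had an adjusted p under 0.05 with higher values in EBs, 5 with lower values, and 0 between KO and WT (1556 unadjusted).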

Other observations

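Among 14 other keratins 2 met the limit. Krt17, a keratin of basal and stressed epithelia with 21.4% of its windows copied, stood at 56.0 and 105 in WT and KO ESCs, and at 90.4 and 369 in WT and KO EBs. Krt42 stood at 318, 158, 254 and 524. The KO EB value was 4.08 times the WT EB value for Krt17 (3.05 to 5.53) and 2.06 times for Krt42 (1.71 to 2.50). The 7 markers of stratified or surface ectoderm, among them Krt5 and Krt14, summed to between 24.1 and 51.2 in each library, and Trp63 was listed at 0. Of their windows, 37.0% in Krt14 and 16.5% in Krt5 are copied elsewhere. At least 96.1% of each Tfap2a entry and 100% of each Trp63 entry lies inside others, so these sums are not read as absence.

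Of 14 other claudins only Cldn2, which forms cation pores in leaky epithelia, met the limit. It was at 0 and 1.07 in WT and KO ESCs, and at 143 and 5.97 in WT and KO EBs, a 24.0-fold lower value in KO EBs (9.07 to 90.0). Cldn2 met the limit through its WT EB value alone. Its KO EB value rests on few reads, since 1 read was worth 1.49 in that library. Cldn8, which has a single entry, was at 0 in all libraries. Cldn10, Cldn12, Cldn14 and Cldn18 were listed at 0, but 100% of each of their entries lies inside others, so that their level is not known.

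Of 9 non-keratin intermediate filament genes measured, 0 passed 2-fold between KO and WT at either stage. Of all genes tested, 10.6% were higher and 4.42% lower in KO ESCs, and 15.2% higher and 12.2% lower in KO EBs. Vimentin, Vim, the filament protein of mesenchymal cells, stood at 1557 and 1314 in WT and KO ESCs, and at 706 and 1166 in WT and KO EBs.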
